A study of Mus musculus with 2 samples.

Results

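The Schlafen (Slfn) genes of the mouse form a family that sits in a single block of chromosome 11. The 6 members described here are Slfn1, Slfn2, Slfn4, Slfn5, Slfn8 and Slfn9, out of 32285 features counted in single cells of the injured heart. They were listed by name with earlier results of these data in view, among them that Slfn1 kept its level in neutrophils while other interferon-induced genes were lower. The differences between the libraries given below for the members are therefore descriptions. Cells bearing CD45, a surface protein of leukocytes, had been isolated with magnetic beads from hearts of wild-type male C57BL/6J mice aged 8 weeks. The splenectomy group had its spleens removed and the sham group had sham surgery (the library whose title names ischemia-reperfusion alone). All mice underwent occlusion of the left anterior descending coronary artery, lasting 60 min, and 24 h of reperfusion. No uninjured heart is part of the comparison. Each group was 1 library made with 10x 3' v3 chemistry, and the sources used here do not say how many animals a library holds, so there was no replicate check and no test between the groups.

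Schlafen proteins are found in mammals and are induced by type I interferon and by activating signals in immune cells. They share a core domain that in several members binds or cleaves transfer RNA. Slfn1 and Slfn2 are short, Slfn4 is of intermediate length, and the long members (Slfn5, Slfn8, Slfn9) add a helicase-like region. In mice, Slfn1 slows the growth of thymocytes when overexpressed, and Slfn2 keeps T cells and monocytes quiescent and protects transfer RNA from cleavage. Type I interferons signal through the receptor chains Ifnar1 and Ifnar2 to a complex that holds Stat2 and Irf9 and binds a short DNA element, the interferon-stimulated response element (ISRE), before their target genes.

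In GENCODE vM21 (mm10) the block ran from position 82942341 to 83286726 of chromosome 11, which is 344.4 kb, and all 8 protein-coding genes in it were Slfn genes. Slfn5 lay first (82951349 to 82964840, + strand), followed by Slfn9 (82978390 to 82991830, - strand) and Slfn8 (83002158 to 83020810, - strand). Slfn2 (83065112 to 83070678), Slfn1 (83116849 to 83122670) and Slfn4 (83175186 to 83190216) followed, all on the + strand. The gene Slfn5os on the - strand overlaps Slfn5 by 9333 bases. The sources used here do not say whether the counting used strand, so reads of Slfn5 and Slfn5os may not be told apart. Slfn5os was listed with 0 UMIs (unique molecular identifiers, the count of distinct captured RNAs) in the splenectomy library and 5 in the sham library. Of the 50-base stretches in the last 500 bases of their transcripts, 25.5% for Slfn8 and 15.8% for Slfn9 were found in another Slfn gene too, mostly in the pseudogene Slfn10-ps. The share was 0 for Slfn1, Slfn2, Slfn4 and Slfn5, so by this measure the counts of Slfn8 and Slfn9 are the uncertain ones among the members.

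The promoter sequences (RefSeq, GRCm38.p6) of 4 members are shown because interferon acts on the region before a gene's start: Slfn1 kept its level in neutrophil-like cells between the libraries, and Slfn4, Slfn5 and Slfn8 were lower after splenectomy. Each is written 5' to 3' on the strand of its gene and ends at the base before the RefSeq start (upstream of the GENCODE start for Slfn1, and inside the GENCODE gene for Slfn5), except that of Slfn5, which stops at position -118 because an exon of another transcript begins there. Capitals mark an ISRE-type match (GAAA, any 2 bases and GAAA, on either strand) in Slfn5 and Slfn8, and an ETS-type core (AGGAAGT, read here on the other strand) in Slfn1 and Slfn4. The windows are chr11:83116570-83116819 (Slfn1), chr11:83174936-83175185 (Slfn4), chr11:82951852-82951984 (Slfn5) and chr11:83020811-83021060 (Slfn8, - strand).
Slfn1: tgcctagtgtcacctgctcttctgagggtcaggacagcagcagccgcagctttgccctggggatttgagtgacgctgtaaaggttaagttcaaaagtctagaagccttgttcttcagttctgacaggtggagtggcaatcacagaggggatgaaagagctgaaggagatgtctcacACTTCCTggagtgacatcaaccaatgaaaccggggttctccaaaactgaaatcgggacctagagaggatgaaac
Slfn4: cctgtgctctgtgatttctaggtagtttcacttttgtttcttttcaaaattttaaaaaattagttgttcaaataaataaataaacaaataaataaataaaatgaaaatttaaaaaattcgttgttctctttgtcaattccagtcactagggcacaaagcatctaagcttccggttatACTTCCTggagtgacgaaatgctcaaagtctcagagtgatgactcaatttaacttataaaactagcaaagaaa
Slfn5: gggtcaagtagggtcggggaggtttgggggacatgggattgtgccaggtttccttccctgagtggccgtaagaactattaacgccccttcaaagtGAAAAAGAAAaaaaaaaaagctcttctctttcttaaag
Slfn8: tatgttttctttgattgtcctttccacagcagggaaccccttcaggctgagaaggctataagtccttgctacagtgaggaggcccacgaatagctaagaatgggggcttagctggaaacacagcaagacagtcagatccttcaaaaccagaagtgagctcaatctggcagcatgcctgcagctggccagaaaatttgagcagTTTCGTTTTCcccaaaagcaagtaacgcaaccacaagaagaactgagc
The ISRE-type letters were found in Slfn5 (positions -155 to -146), Slfn8 (-48 to -39) and Slfn9 (-45 to -36), and not in these windows of Slfn1, Slfn2 or Slfn4 (Slfn4 being a member that was lower after splenectomy). Among 27025 mouse promoters, 3.04% hold them within 250 bases before the start. The ETS-type core, which PU.1 and related factors bind, was found in Slfn1 (-74 to -68), Slfn2 (-55 to -49) and Slfn4 (-73 to -67), and 7.80% of promoters hold it. No window held the STAT element TTCNNNGAA, which 7.18% of promoters hold, and no match overlapped another. The motifs were chosen after the promoters had been read, and a match is a run of letters, not a shown site of binding. Slfn1 and Slfn4 share the 15 bases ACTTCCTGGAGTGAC there, and the promoters of Slfn8 and Slfn9 were 80.2% identical, against 45.5% to 53.1% for every other pair of members.

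The splenectomy library held 5087 barcodes and 48024013 UMIs, and the sham library held 6210 barcodes and 53512625 UMIs. Filtering kept 4805 splenectomy cells (median 7265 UMIs) and 5838 sham cells (median 4972 UMIs), and 9 barcode sequences occurred in both libraries. Ptprc, which encodes CD45, had a UMI in 79.4% of splenectomy and 79.6% of sham cells. Cells were classed by the UMIs of fixed marker genes, and 9 classes had at least 25 cells in both libraries. The largest were neutrophil-like cells (1599 splenectomy and 2300 sham cells), monocyte-like cells (1504 splenectomy and 1302 sham) and macrophage-like cells (900 splenectomy and 1245 sham). The others were B cell-like (111 splenectomy and 109 sham), conventional dendritic cell-like (94 splenectomy and 106 sham) and endothelial cell-like cells (73 splenectomy and 81 sham). T cell-like (71 splenectomy and 65 sham), nonclassical monocyte-like (44 splenectomy and 66 sham) and natural killer cell-like cells (28 splenectomy and 63 sham) were fewest. The monocyte-like and macrophage-like classes grade into each other, since 38.2% of splenectomy and 47.9% of sham monocyte-like cells, and 48.8% of splenectomy and 51.8% of sham macrophage-like cells, scored for a second class at 0.5 of their own score or more. The neutrophil-like class was cleaner, with 9.44% of such cells in the splenectomy and 7.87% in the sham library. Levels below are counts per 1000000 UMIs of the class (CPM), with exact 95% Poisson intervals in parentheses. All intervals cover counting error only, and how far animals differ is unknown.

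Slfn1 was a neutrophil transcript in these hearts. It reached 887 CPM (864 to 911) in splenectomy and 902 CPM (881 to 922) in sham neutrophil-like cells, which held 76.5% of all Slfn1 UMIs in the splenectomy and 73.4% in the sham library. Monocyte-like cells held 62.5 CPM (59.1 to 66.0) in the splenectomy library and 92.9 CPM (88.5 to 97.4) in the sham library, and macrophage-like cells held 26.8 splenectomy and 46.5 sham CPM. T cell-like cells held 124 CPM (89.6 to 167) in the splenectomy library, from 43 UMIs, and 83.0 CPM (57.8 to 115) in the sham library, from 35 UMIs. They stood clear of the next class in the splenectomy library, whereas in the sham library their interval overlapped those of monocyte-like and nonclassical monocyte-like cells. B cell-like cells held 9.78 CPM in the splenectomy and 7.04 CPM in the sham library, and natural killer cell-like cells 6.64 splenectomy and 7.19 sham CPM. When T cell-like cells were thinned to 2000 UMIs each, 16.9% of 65 splenectomy cells (8.76 to 28.3) and 16.7% of 60 sham cells (8.29 to 28.5) had a Slfn1 UMI, against 0.990% of splenectomy and 1.01% of sham B cell-like cells. T cell-like cells had medians of 4498 splenectomy and 4384 sham UMIs before thinning, and B cell-like cells 3694 and 3491.

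Slfn2 was the broadest member, with UMIs in every class. It was highest in neutrophil-like cells, at 2007 CPM in the splenectomy and 1822 CPM in the sham library. Nonclassical monocyte-like cells followed with 1324 CPM (1197 to 1461) and 879 CPM (794 to 970), beside monocyte-like cells with 1241 splenectomy and 975 sham CPM, and the intervals of these classes overlapped in both libraries. Macrophage-like cells held 934 CPM in the splenectomy and 818 CPM in the sham library. The lymphoid and dendritic classes lay lower, between 212 and 392 CPM in the splenectomy library and between 253 and 354 CPM in the sham library. Endothelial cell-like cells held the least, at 141 splenectomy and 153 sham CPM. Monocyte-like cells, with medians of 13075 splenectomy and 13408 sham UMIs against 3745 and 3318.5 in neutrophil-like cells, held 48.9% of Slfn2 UMIs in the splenectomy library and 35.9% in the sham library.

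Slfn4, which in mice is known from myeloid cells and marks a myeloid suppressor population in the inflamed stomach, was concentrated in neutrophil-like cells like Slfn1. There it stood at 561 CPM (543 to 580) in the splenectomy and 1004 CPM (983 to 1026) in the sham library. Monocyte-like cells held 51.5 splenectomy and 127 sham CPM and macrophage-like cells 35.1 splenectomy and 71.3 sham CPM, and these 3 classes were separated in both libraries. B cell-like, T cell-like, natural killer cell-like, dendritic and endothelial cell-like cells held at most 28.1 CPM. In endothelial cell-like cells, 0 UMIs were found in the splenectomy library, where 3 counts would be 7.41 CPM, against 11.98 CPM from 5 UMIs in the sham library.

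Slfn5, a long member, had an order of its own. It was highest in endothelial cell-like cells, a class present despite the selection for CD45, at 590 CPM (518 to 670) in the splenectomy and 630 CPM (556 to 711) in the sham library. Neutrophil-like cells followed at 177 splenectomy and 374 sham CPM, then monocyte-like cells at 103 splenectomy and 225 sham CPM, and these steps did not overlap in either library. Macrophage-like cells held 80.03 splenectomy and 151 sham CPM and dendritic cell-like cells 63.8 splenectomy and 155 sham CPM. Slfn5 was low in T cell-like cells (37.4 splenectomy and 35.6 sham CPM) and B cell-like cells (13.7 splenectomy and 23.5 sham CPM), and natural killer cell-like cells held 0 UMIs in the splenectomy and 2 UMIs in the sham library. The endothelial markers summed to 17709 CPM in splenectomy and 16203 CPM in sham endothelial cell-like cells, against 32.2 splenectomy and 33.3 sham CPM in neutrophil-like cells.

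The remaining long members gave few UMIs. Slfn8 was highest in neutrophil-like cells, at 39.8 CPM in the splenectomy and 72.2 CPM in the sham library, with monocyte-like cells at 30.6 splenectomy and 39.8 sham CPM, macrophage-like cells at 22.9 splenectomy and 35.6 sham CPM and T cell-like cells at 28.8 splenectomy and 35.6 sham CPM. Only in the sham library was the neutrophil-like value clear of the next class. Slfn9 had 124 UMIs in the whole splenectomy library and 260 in the sham library, and the intervals of all classes next to each other in order overlapped. In the sham library monocyte-like cells (3.59 CPM, 2.77 to 4.57) lay below neutrophil-like cells (7.24 CPM, 5.53 to 9.32) and macrophage-like cells (6.07 CPM, 4.95 to 7.37). Of the other Slfn features, Slfn3 held 38 splenectomy and 46 sham UMIs, Slfn14 held 0 splenectomy and 3 sham UMIs, and the Schlafen-like gene Slfnl1 held 1 splenectomy and 0 sham UMIs.

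**Figure D1:**
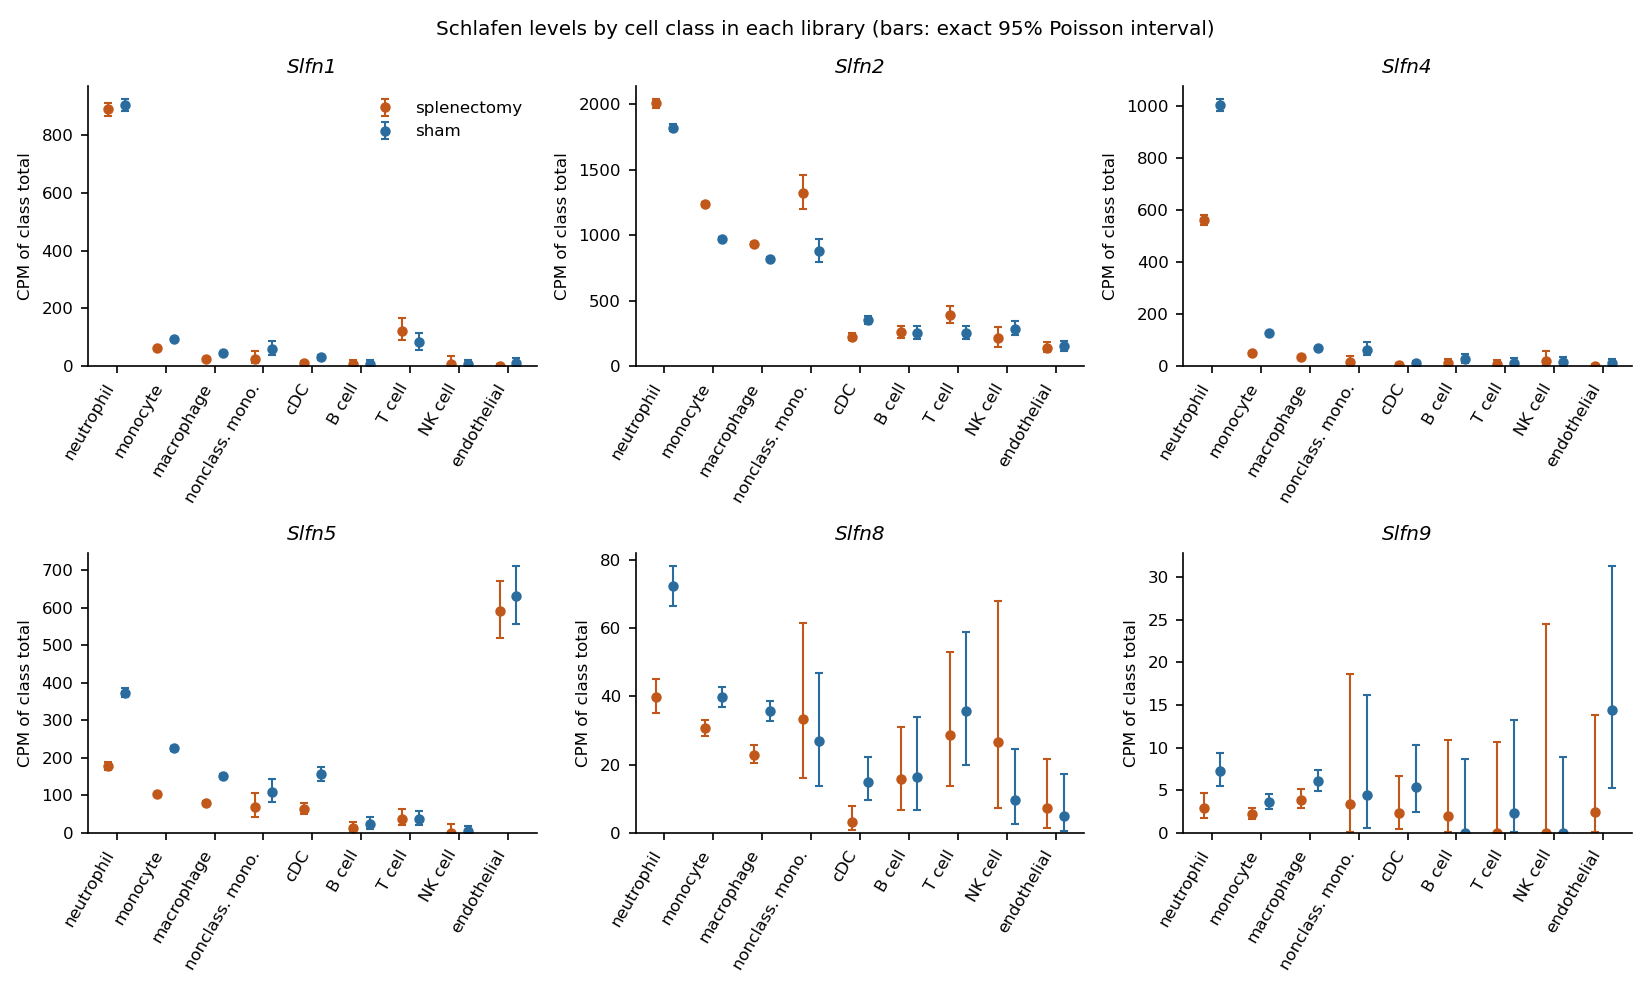
Level of each Schlafen gene, in counts per 1000000 UMIs of the class (y axis, linear, with a scale of its own in each panel), in 9 cell classes (x axis) of the splenectomy (orange) and sham (blue) libraries; each point is 1 library and bars are exact 95% Poisson intervals. Slfn1 and Slfn4 peak in neutrophil-like cells, Slfn2 is spread over the myeloid classes, and Slfn5 is highest in endothelial cell-like cells at 590 splenectomy and 630 sham CPM.

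Between the libraries, neutrophil-like cells held Slfn1 and Slfn2 within 1.5-fold and held less of the other 4 members after splenectomy. A feature was called lower or higher where its CPM differed at least 1.5-fold with at least 50 UMIs in the class over both libraries. Slfn1 stood at 887 CPM in splenectomy and 902 CPM in sham neutrophil-like cells, a log2 ratio (splenectomy over sham) of -0.02 (-0.07 to 0.03). Slfn2 was slightly higher, with a log2 ratio of 0.14 (0.11 to 0.17). Slfn4 was lower by 0.84 on the log2 scale, with a ratio of -0.84 (-0.90 to -0.78), and Slfn5 had a ratio of -1.08 (-1.17 to -0.98). Slfn8 had -0.86 (-1.07 to -0.64) and Slfn9, with only 19 splenectomy and 60 sham UMIs, -1.29 (-2.11 to -0.52). Of the 6 members measured, 4 were called lower and 0 higher, and their median log2 ratio was -0.85. Over 7252 measured features of the class, 8.87% were called lower and 3.74% higher, with a median of -0.09, and nothing is read from the members' count because the members were chosen on this contrast.

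In mononuclear phagocytes Slfn1 was lower after splenectomy. Its log2 ratio was -0.57 (-0.68 to -0.47) in monocyte-like cells, just short of the 1.5-fold limit, and -0.79 (-0.98 to -0.61) in macrophage-like cells. Slfn2 was again on the higher side, at 0.35 (0.32 to 0.38) and 0.19 (0.16 to 0.23), both within 1.5-fold. Slfn4 had -1.30 (-1.41 to -1.20) and -1.02 (-1.18 to -0.86) in the same order, and Slfn5 had -1.13 (-1.20 to -1.05) and -0.91 (-1.02 to -0.81). Slfn8 had -0.38 (-0.54 to -0.22) and -0.64 (-0.84 to -0.43). Slfn9 had -0.69 (-1.27 to -0.12) in monocyte-like cells, from 46 splenectomy and 65 sham UMIs, and -0.64 (-1.17 to -0.14) in macrophage-like cells. In monocyte-like cells 3 of 6 members were called lower, with a median of -0.63, beside 4.09% of 9842 features and a median of 0.00. In macrophage-like cells 5 of 6 were called lower, with a median of -0.72, beside 2.68% of 10056 features and a median of -0.01. No member was called higher in either class, beside 2.82% of features in monocyte-like and 3.54% in macrophage-like cells. When these classes were joined, which was added after seeing the data because so many cells lie near the line between them, 3 of 6 members were called lower, beside 6.51% of features called in either direction.

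Neutrophil RNA in monocyte-like cells moved with the group. The 10 neutrophil markers, all 10 of them with a UMI in both libraries, summed to 2511 CPM in splenectomy and 862 CPM in sham monocyte-like cells, against 139781 splenectomy and 106487 sham CPM in neutrophil-like cells. The sum was 564 splenectomy and 479 sham CPM in macrophage-like cells and 561 splenectomy and 717 sham CPM in dendritic cell-like cells. In nonclassical monocyte-like cells, where 9 of the 10 markers had a UMI in the splenectomy library, it was 530 splenectomy and 2055 sham CPM. If the S100a8 and S100a9 UMIs of monocyte-like cells had come with Slfn1 at the ratio seen in neutrophil-like cells, Slfn1 would have stood at 15.5 CPM in splenectomy and 6.50 CPM in sham monocyte-like cells, against the 62.5 splenectomy and 92.9 sham CPM measured. The part of this RNA in the ratios was not tested beyond these values. In T cell-like cells the same reckoning gave 2.56 CPM in the splenectomy and 6.59 CPM in the sham library, against 124 splenectomy and 83.0 sham CPM measured. In B cell-like cells it gave 8.43 splenectomy and 3.85 sham CPM, close to the 9.78 splenectomy and 7.04 sham CPM measured.

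The smaller classes did not share a single pattern. In conventional dendritic cell-like cells all 3 members with enough UMIs were called lower, with a median of -1.29, beside 5.46% of 4960 features called lower and 4.62% higher. Slfn1 stood at 9.87 CPM there in the splenectomy library, from 13 UMIs, and 30.6 CPM in the sham library, from 51 UMIs, a log2 ratio of -1.63 (-2.64 to -0.73). Slfn2 stood at 224 CPM (199 to 251) and 354 CPM (326 to 383), a ratio of -0.66 (-0.87 to -0.45), and Slfn5 had a ratio of -1.29 (-1.66 to -0.93). In T cell-like cells Slfn2 was called higher, at 392 CPM (328 to 463) in the splenectomy and 254 CPM (208 to 307) in the sham library, a ratio of 0.62 (0.25 to 1.004), beside 7.74% of 1887 features called higher and 14.6% called lower. Slfn1 had a ratio of 0.58 (-0.10 to 1.26) in these cells. Their natural killer cell markers moved with the group, at 28.8 CPM in splenectomy (5 of 9 with a UMI) and 904 CPM in sham cells (6 of 9), and 5.63% of splenectomy and 16.9% of sham T cell-like cells lay near another class. The part of this in the ratios was not tested. In B cell-like cells, where 4.18% of features were called lower and 7.07% higher, Slfn2 had a ratio of 0.04 (-0.34 to 0.42).

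In endothelial cell-like cells Slfn5 differed little between the libraries. Its log2 ratio was -0.09 (-0.35 to 0.16), an interval that lies within 1.5-fold in both directions, from 239 splenectomy and 263 sham UMIs, and that of Slfn2 was -0.12 (-0.66 to 0.41). Neither was called, beside 8.20% of 2745 features called lower and 5.72% higher. In the same cells 26 of 32 measured genes of the interferon-stimulated list were called lower, with a median log2 ratio of -0.83.

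**Figure D2:**
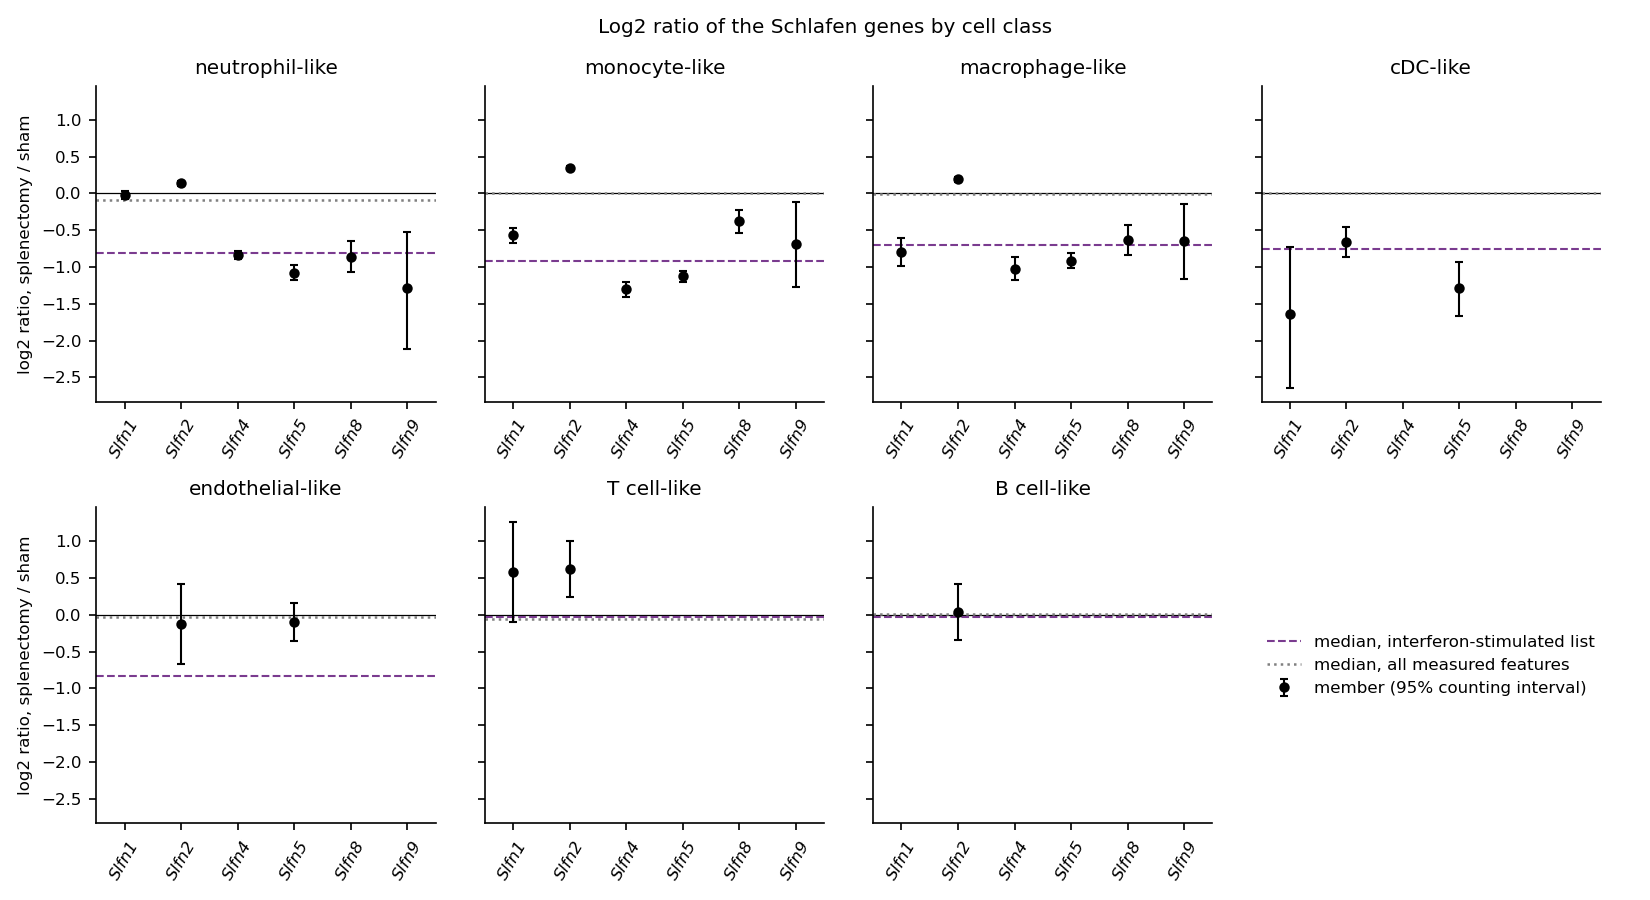
Log2 ratio of splenectomy over sham (y axis) for each measured Schlafen gene (x axis) in 7 cell classes, with 95% counting intervals; the dashed line is the median of the interferon-stimulated list and the dotted line that of all measured features. In neutrophil-like cells Slfn1 and Slfn2 lie near 0 (-0.02 and 0.14) while Slfn4, Slfn5, Slfn8 and Slfn9 lie between -0.84 and -1.29.

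The interferon-stimulated list gave the setting of these ratios. Of its 79 symbols, 76 were among the features. In neutrophil-like cells 51 of 68 measured genes were called lower and 0 higher, with a median log2 ratio of -0.81. The lowest were Ifi206 (-1.80), Ifi209 (-1.44) and Ifi213 (-1.43), nucleic acid sensors or their relatives, and the highest were Nt5c3 (-0.08), Trim25 (-0.12) and Tap2 (-0.14). All 68 therefore lay below the -0.02 of Slfn1, which is the pattern that put Slfn1 in view. In monocyte-like cells 61 of 74 were called lower (median -0.92), from Cxcl9 (-2.61), Gbp4 (-1.96) and Phf11a (-1.72) to Nt5c3 (-0.27), Gbp5 (-0.27) and Cxcl10 (0.17). In macrophage-like cells 44 of 73 were called lower (median -0.70), from Ifi44 (-1.52), Cxcl9 (-1.44) and Ifi206 (-1.28) to Ifi207 (-0.12), Nt5c3 (0.04) and Gbp5 (0.16). Slfn4 and Slfn5 lay inside the range of this list in all 3 classes. Slfn2 lay above every measured gene of the list in each of these 3 classes. In dendritic cell-like cells 29 of 48 genes were called lower, with a median of -0.75. In B cell-like cells 2 of 18 were called lower, and in T cell-like cells 2 of 22 were called lower and 2 higher, both with a median of -0.03.

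**Figure D3:**
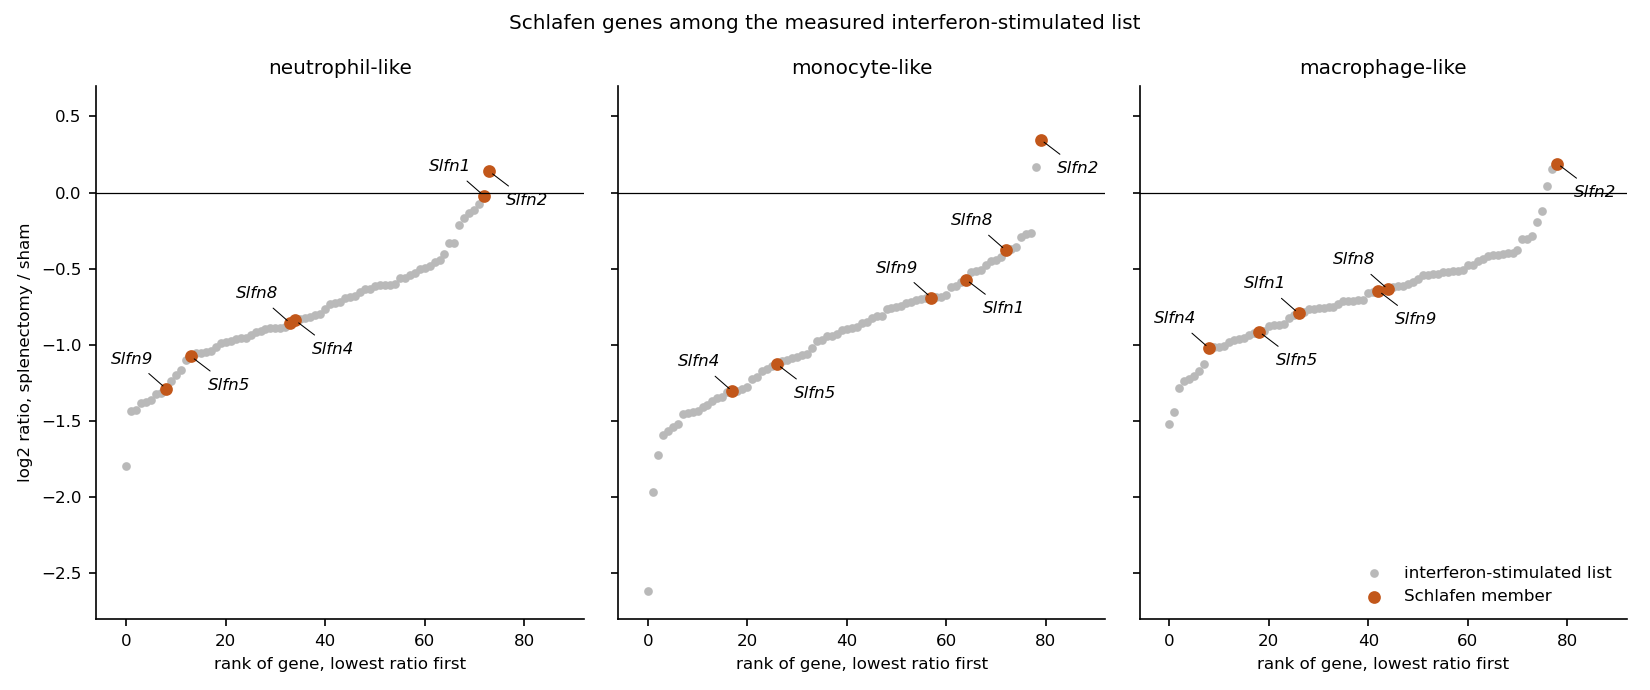
Log2 ratio of splenectomy over sham (y axis) of the measured genes of the interferon-stimulated list (gray) and the 6 Schlafen genes (orange) in order of ratio (x axis, rank) in the 3 largest classes; each point is 1 gene. Slfn2 is the rightmost point in each panel, Slfn1 stands next to it in neutrophil-like cells only, and Slfn4 and Slfn5 lie within the list.

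Genes that act before the Schlafen genes in the pathway differed among themselves. Ifnar1, a chain of the type I interferon receptor, stood at 75.1 CPM in splenectomy and 62.6 CPM in sham neutrophil-like cells, a log2 ratio of 0.26, and Ifnar2, the other chain, at 145 splenectomy and 176 sham CPM, a ratio of -0.28. The factor Irf7 (159 splenectomy and 331 sham CPM, ratio -1.05) was called lower. So were the responsive genes Ifit3 (126 splenectomy and 325 sham CPM, ratio -1.36) and Isg15 (513 splenectomy and 903 sham CPM, ratio -0.82). In monocyte-like cells the log2 ratios were -1.37 for Irf7, -1.14 for Ifit3 and -0.51 for Isg15, and in macrophage-like cells -0.96, -1.22 and -0.31. Of 29 measured receptor and signaling genes, 6 were called lower in neutrophil-like cells (among them Stat2, Irf7, Usp18, Ddx58 and Ifih1) and 1 higher, the lipopolysaccharide receptor Tlr4 (0.63), with a median of -0.08. In monocyte-like cells 7 of 30 and in macrophage-like cells 5 of 31 were called lower, with medians of -0.12 and -0.17.

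Transcripts of the interferons themselves were rare. Ifnb1 had 41 UMIs in 18 splenectomy cells and 86 UMIs in 27 sham cells, and these cells were mostly monocyte-like (30 splenectomy and 34 sham UMIs) or macrophage-like (10 splenectomy and 51 sham UMIs). The macrophage-like ratio of -1.94 thus came from 7 splenectomy and 12 sham cells. Ifng had 33 UMIs in 20 splenectomy cells and 80 UMIs in 27 sham cells, with 23 splenectomy and 46 sham UMIs in natural killer cell-like cells. Ifnk held 2 splenectomy and 3 sham UMIs, Ifnz held 0 splenectomy and 2 sham UMIs, and the other 7 interferon genes on the list were at 0 in both libraries.

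A list of antiviral genes linked to the cutting of RNA or to translation, activities for which Schlafen proteins are known, was also measured. In neutrophil-like cells 5 of its 11 genes were called lower (Eif2ak2, Adar, Oas1a, Oas2 and Oas3) and 1 higher, with a median of -0.29. Over all measured features of the class, 8.87% were called lower and 3.74% higher. Eif2ak2, Oas1a, Oas2 and Oas3 are on the interferon-stimulated list too, so these lists are not separate. The counts of genes called lower were 5 of 11 in monocyte-like and 1 of 11 (Oas3) in macrophage-like cells, with medians of -0.52 and -0.41. Granule and maturation genes of neutrophils went the other way: 9 of 22 measured were called higher in neutrophil-like cells and 0 lower, with a median of 0.36, led by Ngp (2.58), Cd177 (2.43) and Retnlg (1.60). Of 29 myeloid activation genes, 1 was called lower there and 0 higher, with a median of -0.14. In monocyte-like cells 8 of 30 were called higher and 1 lower, with a median of 0.41, and in macrophage-like cells 4 of 30 were called higher, with a median of 0.21.

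Slfn4, Slfn5 and Slfn8 were also found in fewer single neutrophil-like cells after splenectomy, and Slfn1 in slightly fewer. Cells were thinned to 2000 UMIs, which kept 1483 splenectomy and 2060 sham cells and left out 116 and 240 shallower ones. Slfn5 was found in 18.2% of splenectomy and 34.4% of sham cells (before thinning, 25.1% of 1599 splenectomy and 44.2% of 2300 sham cells), against 1.98% of splenectomy and 2.02% of sham B cell-like cells. Slfn4 was found in 49.8% of splenectomy and 65.8% of sham cells, and Slfn8 in 7.69% of splenectomy and 12.5% of sham cells. Slfn1 was found in 68.4% of splenectomy cells (66.0 to 70.8) and 73.6% of sham cells (71.7 to 75.5), beside 887 CPM in splenectomy and 902 CPM in sham cells. The share was 79.99% in splenectomy and 82.0% in sham cells before thinning. In cells thinned to 1000 UMIs it was 51.9% splenectomy (49.3 to 54.4) and 53.4% sham (51.3 to 55.5), with overlapping intervals. Slfn2 was found in 88.9% of splenectomy and 86.5% of sham cells, against 32.0% and 23.3% of endothelial cell-like cells. As a background for Slfn1 and Slfn4, 0 of 50 splenectomy endothelial cell-like cells held a UMI of either gene, which allows a share of up to 6%, and of 60 sham cells 1 held Slfn1 and 2 held Slfn4. For Slfn8 it was 1 of 50 splenectomy and 0 of 60 sham cells, the second allowing up to 5%. Median depths before thinning were 3745 splenectomy and 3318.5 sham UMIs for neutrophil-like cells, 3441 and 3532 for endothelial cell-like cells. In monocyte-like cells thinned to 4000 UMIs (medians of 13075 splenectomy and 13408 sham UMIs before), Slfn5 was found in 24.9% of splenectomy and 48.8% of sham cells, against 1 of 39 and 1 of 31 B cell-like cells. Slfn4 was found in 14.7% of splenectomy and 31.8% of sham cells, against 0 of 34 and 2 of 36 endothelial cell-like cells. Slfn1 was found in 19.5% of splenectomy and 27.6% of sham cells, against 0 of 34 and 0 of 36, which allow up to 8.82% and 8.33%.

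Slfn5 UMIs lay in fewer cells than those of Slfn1, Slfn2 and Slfn4. The tenth of neutrophil-like cells with the most UMIs of a gene carried 77.3% of Slfn5 UMIs in the splenectomy and 57.1% in the sham library, against 48.2% (splenectomy) and 41.4% (sham) for Slfn4, 35.4% (splenectomy) and 33.5% (sham) for Slfn1, and 28.0% (splenectomy) and 29.3% (sham) for Slfn2. Slfn8, found in few cells, had 100% in the splenectomy and 83.7% in the sham library, and Slfn9 had 100% in both. Some pairs of members were found together in cells more often than others, and no other genes were set beside them. Of splenectomy neutrophil-like cells with a Slfn5 UMI, 72.6% also had Slfn4, against 44.8% of those without one, and in the sham library 82.6% against 57.0%. The same held for Slfn1, at 84.4% against 64.9% in the splenectomy and 83.9% against 68.3% in the sham library. Of cells with Slfn8, 44.7% had Slfn5 in the splenectomy library, against 16.0% of cells without it, and in the sham library 62.4% against 30.4%. Slfn4 and Slfn2 hardly went together. Of cells with Slfn4, 89.4% had Slfn2 in the splenectomy library, against 88.4% of cells without Slfn4, and in the sham library 87.3% against 84.9%.

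Across neutrophil-like cells, the members differed in how far their level went with the interferon-stimulated list. Cells thinned to 2000 UMIs were put into 3 bins by their UMIs of the 76 list genes, none of which is a Slfn gene: 0 to 9 (797 splenectomy and 469 sham cells), 10 to 20 (413 splenectomy and 716 sham) and 21 to 342 (273 splenectomy and 875 sham). A bin is a range of a per-cell count, not a cell type. From the low to the high bin Slfn5 was 23.2-fold higher in the splenectomy library (29.5, 143 and 683 CPM) and 11.5-fold higher in the sham library (61.8, 173 and 711 CPM). Slfn8 was 6.78-fold higher in the splenectomy and 6.49-fold higher in the sham library. Slfn4 was 5.24-fold higher in the splenectomy (280, 499 and 1471 CPM) and 4.84-fold higher in the sham library (356, 577 and 1722 CPM). Slfn1 was 1.93-fold higher (700, 1038 and 1350 CPM) in the splenectomy and 1.75-fold higher (671, 814 and 1171 CPM) in the sham library. Slfn2 was flattest, at 1.23-fold in the splenectomy and 1.04-fold in the sham library. Slfn1 thus was not flat along the list within either library, although its class level was near equal between them.

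Within bins of equal cell number, the libraries lay closer for Slfn4 in all 3 bins and for Slfn5 and Slfn8 in the middle and high bins. In the high bin the log2 ratio of splenectomy over sham was -0.06 for Slfn5, -0.07 for Slfn8 and -0.23 for Slfn4, against -1.08, -0.86 and -0.84 over the whole class. In the low bin Slfn5 still had -1.07, and Slfn4 had -0.34. Slfn8 had -0.13 there (-0.99 to 0.76), an interval that also holds its ratio over the whole class. The bins are wide, and list UMIs within them were not quite equal, with means of 5.26 splenectomy and 6.36 sham UMIs in the low, 13.6 splenectomy and 14.2 sham in the middle and 43.8 splenectomy and 46.4 sham in the high bin. Slfn1 was higher in the splenectomy library in the middle (0.35) and high (0.21) bins, with 0.06 in the low bin, and Slfn2 had 0.09, 0.16 and 0.33. A second way of setting the bins left nearly all cells in 1 bin, so it cannot show whether the closeness depends on the bins. With bins of 0, 1 to 2, and 3 or more list UMIs, the last held 1373 splenectomy and 2027 sham cells, 92.6% and 98.4% of them, with means of 15.7 splenectomy and 26.5 sham list UMIs. In it the ratios were -0.96 for Slfn5, -0.71 for Slfn8, -0.80 for Slfn4, 0.02 for Slfn1 and 0.16 for Slfn2. In the bin of 1 to 2 list UMIs, with 102 splenectomy and 29 sham cells, Slfn1 had -0.45 and Slfn2 -0.17.

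**Figure D4:**
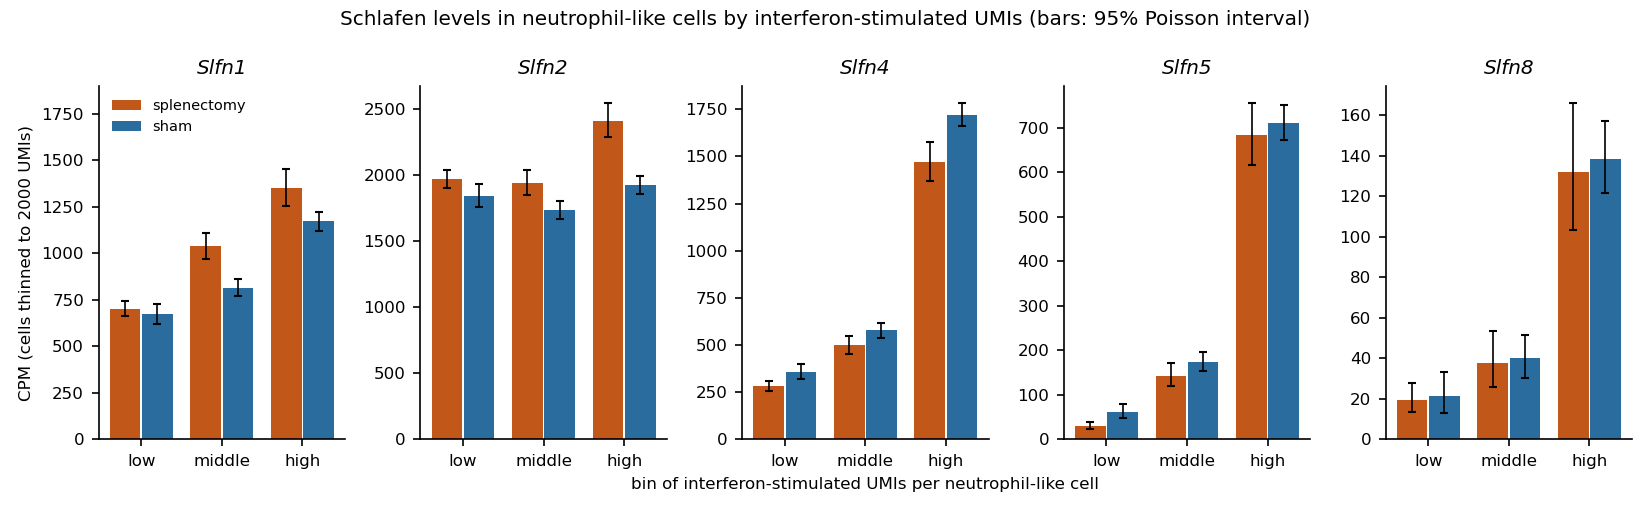
Level of 5 Schlafen genes in neutrophil-like cells thinned to 2000 UMIs (y axis, CPM from 0, a scale of its own in each panel) by bin of interferon-stimulated list UMIs (x axis) in the splenectomy (orange) and sham (blue) libraries, with 95% Poisson intervals. Slfn5 goes up from 29.5 splenectomy and 61.8 sham CPM in the low bin to 683 splenectomy and 711 sham CPM in the high bin, while Slfn2 stays between 1733 and 2410 CPM.

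Granule and maturation genes divided the neutrophil-like cells differently. In bins of 0 to 15, 16 to 23 and 24 to 153 UMIs of the 26 list genes, Slfn4 was flat in both libraries, at 551, 577 and 556 CPM in splenectomy and 1020, 979 and 1049 CPM in sham cells. Its log2 ratio was -0.89, -0.76 and -0.92 in the low, middle and high bins. Slfn5 was lower in cells with more granule transcripts, at 266, 203 and 121 CPM in splenectomy and 424, 344 and 337 CPM in sham cells, and its ratio was -0.67, -0.76 and -1.47. Slfn1 had ratios of 0.10, 0.17 and -0.16, and Slfn2 had 0.26, 0.19 and 0.14. The Slfn1 intervals lay off 0 in the middle bin (0.04 to 0.29) and, on the other side, in the high bin (-0.29 to -0.03). These bins split the same cells in which the level of Slfn1 was first seen, so they are a description and no added support.

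The ratios were also taken within clusters. Of the clusters of neutrophil-like cells, 3 were large enough to compare: 1 led by Ifit2 and Cxcl10 (484 splenectomy and 1073 sham cells), 1 led by Nt5e and Cwc25 (435 splenectomy and 731 sham) and 1 led by Retnlg and Ngp (616 splenectomy and 379 sham). The cluster led by Retnlg held the largest number of splenectomy neutrophil-like cells, and the cluster led by Ifit2 the largest number of sham ones. Slfn1 had 1004 splenectomy and 1033 sham CPM in the first, 995 splenectomy and 877 sham CPM in the second and 755 splenectomy and 683 sham CPM in the third, with log2 ratios of -0.04, 0.18 and 0.14. Slfn4 had ratios of -0.82, -0.66 and -0.82, and Slfn5 had -0.98, -0.52 and -0.94, in the same order. The median of the interferon-stimulated list was -0.66, -0.41 and -0.60. Over all clusters of the 3 myeloid classes in which a member was measured, the ratio was below 0 in 11 of 11 for Slfn4 (-1.64 to -0.28), 11 of 11 for Slfn5 (-1.36 to -0.52), 10 of 10 for Slfn8 (-1.21 to -0.17) and 1 of 12 for Slfn2 (-0.31 to 0.42). For Slfn1 it was below 0 in 9 of 11, and both exceptions were the neutrophil-like clusters led by Nt5e and by Retnlg. Over whole classes, the ratio was below 0 for 61.4% of measured features in neutrophil-like, 49.8% in monocyte-like and 52.6% in macrophage-like cells. The clusters split the same cells of 1 library per group, so these counts are a description and no added support.

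**Figure D5:**
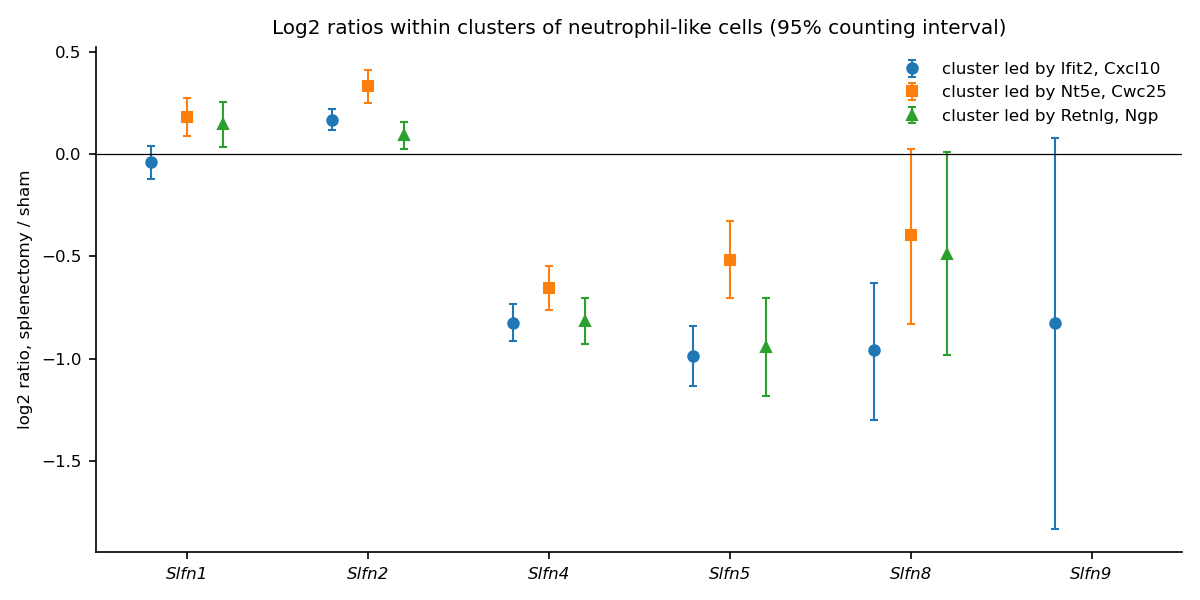
Log2 ratio of splenectomy over sham (y axis) for each measured Schlafen gene (x axis) within 3 clusters of neutrophil-like cells, with 95% counting intervals. Slfn1 and Slfn2 lie between -0.04 and 0.33, and Slfn4 and Slfn5 lie between -0.98 and -0.52 in all 3 clusters.

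Among macrophage-like cells, the cluster led by Lyve1, a marker of resident macrophages, held Slfn4 at 6.56 CPM in the splenectomy and 13.9 CPM in the sham library and Slfn5 at 119 splenectomy and 248 sham CPM. A cluster of 75 splenectomy and 81 sham cells with low RNA content, medians of 1909 splenectomy and 1705 sham UMIs, held the most Slfn4. It stood at 612 CPM from 92 UMIs in splenectomy and 1091 CPM from 172 UMIs in sham cells, against 6.56 to 45.1 CPM in splenectomy and 13.9 to 82.0 CPM in sham cells of the other macrophage-like clusters. Slfn4 was among its leading genes, with Ccnb1ip1, Rmrp and Hist1h1e, and it is left without a name. Its S100a8 and S100a9 together stood at 791 splenectomy and 812 sham CPM, against 125848 splenectomy and 95496 sham CPM in neutrophil-like cells.

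The levels of the members across classes were compared with those of 8049 other features, as Pearson correlations of log2(CPM + 1) over 14 points, which are 7 classes in each of the 2 libraries and share depth and cell source within a library. Nearest to Slfn1 were Isg20 (0.937), Il6ra (0.937) and Orai2 (0.931), and nearest to Slfn2 were Cebpb (0.967), Rffl (0.961) and Cebpe (0.958). Nearest to Slfn4 were Trem1 (0.964), Tnfrsf1b (0.943) and Cd300lf (0.941), and nearest to Slfn5 were Tbkbp1 (0.948), Micall2 (0.923) and Fhod1 (0.921). Slfn8 was nearest to Nt5e (0.920), Ppp1r3b (0.873) and Pde4d (0.861), and Slfn9 to Ube2l6 (0.883), Mapk7 (0.871) and Zdhhc7 (0.854). Slfn9 had few UMIs in the small classes. Its highest point, sham endothelial cell-like cells at 14.4 CPM, came from 6 UMIs, and T cell-like cells held 0 splenectomy and 1 sham UMI. Counting error thus weighs heavily on its correlations, and nothing is read from them. Among the members, Slfn1, Slfn2 and Slfn4 lay close together (0.814 to 0.886), and Slfn5 stood apart from them, with 0.056 to Slfn1, 0.155 to Slfn2 and 0.139 to Slfn4.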

How the data were processed

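Single-cell 3' RNA libraries of cardiac CD45-positive cells were taken as deposited, as counts of UMIs per feature and barcode. Per the file headers the authors made them with Cell Ranger 5.0.0, and the submitters' processing notes name STAR and mm10. Cells with under 200 genes or over 20% mitochondrial UMIs were left out (26 splenectomy and 32 sham barcodes under the first limit, 72 and 58 over the second), and Scrublet scores (expected rate 0.05) removed the top 8 per 1000 cells for each 1000 cells, 200 splenectomy and 302 sham cells. Scrublet's own threshold called 3 and 131. Each cell went to the class, of 17 scored, with the highest mean of its markers' log-scaled counts, each divided by its 95th percentile, with at least 3 markers detected, and stayed unassigned otherwise. Leiden clusters (22, resolution 1, seed 7) used 2000 variable genes, 30 components and 15 neighbors. CPM is the summed class count per 1000000. Ratios carry exact conditional binomial intervals, levels exact Poisson and shares exact Clopper-Pearson intervals. A level at 0 was set against 3 counts. Lists were summed by counts and medians of features with at least 50 UMIs in both libraries together. The steps were tested on simulated data. No test between groups was run, since each group has 1 library. Members, lists and motifs were chosen with earlier results of these data known. Named genes are the members, other Slfn features, the 3 features most like each member, set interferon genes, the 3 highest and 3 lowest of the interferon-stimulated list in the 3 largest classes, and ligands with a UMI. Results of some listed genes are not reported here. Others named from the remaining lists were chosen after their values were seen. Alternatives changed the classes, cell filters, doublets, scaling, count minimum, fold limit, thinning depth and bins. Scanpy 1.11.5, leidenalg 0.10.2, scipy 1.17.1, numpy 2.4.6, pandas 2.3.3 and matplotlib 3.10.9 were run under Python 3.11.15.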

Additional observations from a re-analysis of the deposited data

Results flagged for a closer look

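Slfn2 in conventional dendritic cell-like cells ran against the other myeloid classes. Its log2 ratio of splenectomy over sham was -0.66 there, at 224 splenectomy and 354 sham CPM, while it was 0.14 in neutrophil-like, 0.35 in monocyte-like and 0.19 in macrophage-like cells and 0.62 in T cell-like cells. The difference between the classes was not tested, because each group is 1 library. Of these 94 splenectomy and 106 sham cells, 44.7% and 58.5% lay near the line to another class, and without such cells the ratio was -0.92. A monocyte-like cluster was led by Ccl17, H2-Eb1, Cd209a and H2-Aa, genes that also led the dendritic class. There Slfn2 had a ratio of 0.42 (0.27 to 0.57), in 59 splenectomy and 58 sham cells. The lower Slfn2 was thus not seen in all cells with these genes.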

How the results depend on the processing

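Each ratio of the members in the 3 largest classes kept its direction under every alternative tried, except that of Slfn1 in neutrophil-like cells. It ranged from -0.05 to 0.064 over 8 alternatives and was 0.064 when ratios were centered on the median of all measured features. With a 2-fold limit, 2 members were called in neutrophil-like, 2 in monocyte-like and 1 in macrophage-like cells, beside 2.68%, 1.98% and 1.74% of features. With monocyte-like and macrophage-like cells joined, an alternative chosen after seeing the data, 3 were called, beside 6.51% of features. Slfn1 in macrophage-like cells ranged from -0.85 to -0.53 and was called lower in 8 of 9 alternatives. With no minimum of counts, 39.2% of features were called in neutrophil-like cells in either direction. Ratios within bins of interferon-stimulated UMIs moved when the bins were set at fixed UMI numbers, where 1 bin held nearly all cells. No paired analysis was possible because each group has 1 library. Levels depended on the processing more than directions did. Under alternative classes, cell filters, doublet handling and averaging, 69 member levels in the 3 largest classes left their counting intervals and 147 stayed inside. Shares of cells left theirs in 69 cases and stayed in 3, under alternatives that set another thinning depth or none. Counting error limits Slfn9 most, and differences between animals are not covered by any interval.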

Other observations

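Cells that no class took (339 splenectomy and 470 sham cells) held Slfn4 at 85.1 CPM in the splenectomy and 231 CPM in the sham library. Slfn3, the neighbor of Slfn4 on the chromosome, had 9 splenectomy and 4 sham UMIs in endothelial cell-like cells. That is 22.2 CPM (10.2 to 42.2) and 9.58 CPM (2.61 to 24.5), with overlapping intervals. Of the 50-base stretches in the last 500 bases of Slfn3 transcripts, 15.7% were found in Slfn4 too, so its counts are also uncertain.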
